A study of Mus musculus with 21 samples.

Results

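The AP-1 and immediate early factors are a list of 10 mouse genes, chosen by name: the Fos family genes Fos, Fosb, Fosl1 and Fosl2, the Jun family genes Jun, Junb and Jund, and Atf3, Ier2 and Klf6. Of the 10, 9 were held by at least 1 of the 4 expression tables of the series, and 8 were held by all 4, out of 9973 genes that all 4 tables hold. Fosb was listed only in the CHZ868 washout table and Atf3 was in none, so expression values of Fosb are given for that experiment alone and of Atf3 for none. AP-1 is a transcription factor built as a dimer, in which a Fos or ATF protein pairs with a Jun protein, or Jun proteins pair with each other, through leucine zippers. Many of its genes are immediate early genes, which cells switch on within minutes of a cytokine or growth factor signal without making new protein first, and in blood cells JAK-STAT and MAP kinase signals are among their inducers. JunB and JunD can counteract c-Jun in growth control, so the mixture of family members matters as well as their sum.

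The measurements were RNA-seq expression values (log2 CPM, the log2 of read counts scaled to the size of each library) of the Ba/F3 line, mouse pro-B cells that normally need interleukin-3 (IL-3), here stably expressing JAK2-V617F, the activating JAK2 mutation of myeloproliferative neoplasms, in all 21 libraries, the controls included. The DMSO_treated, Ruxo_treated and CHZ_treated groups (DMSO-treated, ruxolitinib-treated and CHZ868-treated below) were harvested after 6 h with solvent or with 1 μM of inhibitor. Ruxo-wash and CHZ868-wash cells had 1 h with 1 μM of inhibitor, 3 PBS washes and then 6 h without it, and each had a DMSO-wash group of its own experiment. Ruxolitinib binds the active form of the kinase (a type I inhibitor) and CHZ868 the inactive form (type II). Each of the 7 groups had 3 libraries. A virus-transduced line carrying an overexpressed mutant is a model of oncogenic JAK2 signalling outside its patient cell type, and the labels do not say that replicates were separate cultures, so p-values measure the spread between these libraries.

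Between 7880000 and 10670000 reads fell on listed genes in the 15 libraries whose values gave whole reads, and the depth of the 6 libraries of the ruxolitinib washout table is unknown. Ruxolitinib-treated replicate 2 and DMSO-wash replicate 3 of the CHZ868 experiment stood apart from their groups: their median absolute log2 difference from the other replicates was 0.227 and 0.194 to 0.252, against 0.116 and 0.121 between those others. Of 8 pro-B markers only Cd79a and Cd79b were listed in any table, whereas the leukocyte marker Ptprc and the IL-3 receptor genes Il3ra, Csf2rb and Csf2rb2 were listed in all, and T cell markers in none. Of 4 macrophage markers, Csf1r was in every table, and Adgre1 and Lyz2 were in the ruxolitinib washout table alone, as was 1 of 3 fibroblast markers, Col1a1.

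Promoter sequence is shown for some of the members that carry the 6 h results below, Junb and Fos, which were lower, and Jun and Klf6, which were higher with CHZ868. Fosl2 also fell with CHZ868 but is not shown, and its window held no match. Whether these letters go with the direction of change was not tested. Each stretch covers the 150 bases before the RefSeq start of the gene (GRCm38.p6), written 5′ to 3′ on the gene's strand. Capitals mark TGACG, the core of the cAMP response element (CRE) that CREB and ATF proteins bind, in Fos and Junb, and TGACNTCA, a CRE with any base in its middle position N, in Jun and Klf6. The Junb stretch is chr8:84978749-84978898 on the minus strand, that of Fos chr12:85473740-85473889 on the plus strand, that of Jun chr4:95052223-95052372 on the minus strand, and that of Klf6 chr13:5861339-5861488 on the plus strand.
Junb: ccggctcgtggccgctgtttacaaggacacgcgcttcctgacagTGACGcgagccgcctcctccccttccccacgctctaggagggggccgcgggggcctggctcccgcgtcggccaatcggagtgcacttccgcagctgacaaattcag
Fos: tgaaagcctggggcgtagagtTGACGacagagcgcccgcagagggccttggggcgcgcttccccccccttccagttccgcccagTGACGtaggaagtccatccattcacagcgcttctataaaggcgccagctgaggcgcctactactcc
Jun: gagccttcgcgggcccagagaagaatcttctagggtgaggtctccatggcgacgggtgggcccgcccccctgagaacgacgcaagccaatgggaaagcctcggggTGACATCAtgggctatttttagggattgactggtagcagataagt
Klf6: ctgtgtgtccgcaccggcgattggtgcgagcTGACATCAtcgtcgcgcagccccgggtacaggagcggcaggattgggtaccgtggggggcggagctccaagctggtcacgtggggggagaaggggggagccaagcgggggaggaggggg

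In GRCm38 the genes lie at chr8:84974484-84978718 (Junb, minus strand), chr12:85473890-85477273 (Fos, plus strand), chr4:95049034-95052222 (Jun, minus strand), chr13:5861482-5870394 (Klf6, plus strand), chr8:70698949-70700616 (Jund, plus strand), chr8:84661331-84662852 (Ier2, minus strand), chr19:5447547-5455946 (Fosl1, plus strand), chr5:32135801-32157842 (Fosl2, plus strand) and chr7:19302696-19310051 (Fosb, minus strand). Jun, Junb, Jund and Ier2 have 1 exon each. Promoters were at hand for 8 of the 10 members, and not for Fosl1 and Ier2. In Fos, TGACG lies 129 to 125 and 66 to 62 bases before the start, and in Junb 106 to 102 bases before it. In Jun the TGACNTCA match lies 45 to 38 bases before the start and in Klf6 119 to 112 bases before it. Fosb (60 to 56) and Atf3 (7 to 3, on the reverse strand) also held TGACG, whereas Fosl2 and Jund held no match. The RefSeq starts of these last genes are not the starts printed above: the window of Jund ends at base 70697738, before the printed gene, and that of Fosl2 at base 32136471, inside it. Smaller shifts hold for Junb, whose window stops short of the printed gene, and for Klf6 and Fosb, whose windows reach into it. The Atf3 window (chr1:191183334-191183583) lies inside its gene (chr1:191170296-191218039, minus strand). Searched on both strands of the 250 bases before the start, TGACG was in 17.8% of 32851 mouse promoters and TGACNTCA in 7.49%. TGACG overlaps some TGACNTCA matches. None of the 8 windows held TTCNNNGAA, the letters of a STAT (GAS) site (7.02% of promoters). None held TGANTCA, a short form of AP-1 site (6.75%), the full CRE TGACGTCA (1.55%), or the serum response factor CArG box (1.47%). The search for TGANTCA cannot match TGACNTCA, so it does not decide whether AP-1 proteins bind those letters in Jun and Klf6. The matches describe letters in these windows, not binding, and sequence farther from the start was not searched.

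In DMSO-treated cells the levels per kilobase of the longest transcript ran from Ier2 at 47.5 ± 2.35 CPM per kb (SD, n = 3), through Jund at 38.2 ± 3.44, Junb at 24.7 ± 0.54, Klf6 at 12.9 ± 0.80, Fosl2 at 10.8 ± 0.48 and Jun at 7.65 ± 0.30, to Fosl1 at 4.94 ± 0.16 and Fos at 4.93 ± 0.24. In that order Fosl1 and Fos overlapped, and no other neighbours did. In CHZ868-treated cells the order was Jund (43.7 ± 3.94), Ier2 (27.3 ± 2.73), Klf6 (17.1 ± 2.17), Jun (11.6 ± 0.32), Junb (9.25 ± 1.39), Fosl2 (6.87 ± 0.20), Fosl1 (2.96 ± 0.09) and Fos (2.69 ± 0.53 CPM per kb), where again only Fosl1 and Fos overlapped. Jun, below Junb in every DMSO-treated library, was above it in every CHZ868-treated library on this scale.

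After 6 h with CHZ868, Fos, Fosl1, Fosl2, Junb and Ier2 fell and Jun and Klf6 rose against DMSO-treated cells, and Jund did not pass the test. The change was thus not in 1 direction: within the Jun family Junb fell while Jun rose. By limma-trend with Benjamini-Hochberg adjustment over the 11670 genes of the table, 7 of 8 members passed an adjusted p of 0.05, and the same 7 had no overlap between groups. Among all genes 53.2% passed, 26.8% higher and 26.4% lower, and 59.7% had no overlap, so a call by itself was common in this comparison. The median log2 fold change was -0.68 over the 8 members and -0.01 over all genes.

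Fos, the founding member of its family, had 3.47, 3.33 and 3.42 log2 CPM in the DMSO-treated libraries and 2.82, 2.53 and 2.27 in the CHZ868-treated ones. Every CHZ868-treated library was below every DMSO-treated one, with 37 to 69 reads against 95 to 101. The log2 fold change was -0.87 ± 0.22 (SE, adjusted p = 0.00411), 1.82-fold lower. Fosl1, which encodes FRA-1, had 3.25, 3.28 and 3.19 log2 CPM with DMSO and 2.48, 2.57 and 2.51 with CHZ868, a log2 fold change of -0.72 ± 0.21 (adjusted p = 0.0103). The groups did not overlap, but with quantile normalization the adjusted p was 0.0532. Fosl1 shares 1163 transcribed bases with Ccdc85b on the other strand, which fell as well (-0.96 ± 0.18 log2, adjusted p = 0.00037), and since no source states whether counting used strand, reads of the pair cannot be told apart. Fosl2, which encodes FRA-2 and is the most abundant Fos family transcript in the libraries harvested after 6 h of treatment, had 6.22, 6.10 and 6.12 log2 CPM with DMSO and 5.54, 5.45 and 5.50 with CHZ868. The libraries of each group lay close together and the fall of 0.65 ± 0.08 on the log2 scale (adjusted p = 1.22e-05) was larger than the spread within either.

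Junb, an AP-1 subunit and known cytokine response gene, had the largest change of any member with CHZ868. Its libraries read 5.51, 5.49 and 5.45 log2 CPM with DMSO and 3.85, 4.28 and 4.09 with CHZ868, which is 397 to 459 reads against 135 to 145. All 3 CHZ868-treated libraries were more than 1 log2 unit below all DMSO-treated ones. The log2 fold change was -1.41 ± 0.13 (adjusted p = 3.65e-07), 2.66-fold lower, and 2.53% of the 11670 genes fell further. Junb shares 173 transcribed bases with Prdx2 on the other strand, whose own log2 fold change was 0.16 (adjusted p = 0.193). Jun, which encodes c-Jun, had 4.62, 4.56 and 4.68 log2 CPM with DMSO and 5.24, 5.18 and 5.25 with CHZ868. The groups were separated by a gap wider than the range of either, and the log2 fold change was 0.60 ± 0.11 (adjusted p = 0.00029), 1.52-fold higher. Jun shares 232 transcribed bases with Junos on the other strand, which had 52 to 65 reads with DMSO and 7 to 50 with CHZ868 (log2 fold change -1.04, adjusted p = 0.112). Jund, the most constitutive Jun gene, had 5.88, 5.97 and 6.13 log2 CPM with DMSO and 6.15, 6.33 and 6.09 with CHZ868. Its groups overlapped, and the difference was 0.20 with a 95% interval of -0.002 to 0.39 (adjusted p = 0.0882). It passed the test with a GC content trend removed (0.36, adjusted p = 0.00447) and without CHZ868-treated replicate 3 (0.25, adjusted p = 0.0336).

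Ier2, a small nuclear immediate early protein, had 6.16, 6.26 and 6.12 log2 CPM with DMSO and 5.50, 5.22 and 5.42 with CHZ868. No library of one group reached the other, and it fell by 0.80 ± 0.09 on the log2 scale (adjusted p = 5.24e-06), 1.74-fold. Klf6, a zinc finger factor of the Krüppel-like family, had 5.85, 5.79 and 5.67 log2 CPM with DMSO and 6.36, 6.01 and 6.14 with CHZ868, a rise of 0.40 ± 0.10 (adjusted p = 0.00312) with the groups adjacent but not overlapping. In the same libraries the IL-3 receptor genes fell, Csf2rb by 0.36, Csf2rb2 by 0.33 and Il3ra by 0.24 on the log2 scale, and so did the macrophage marker Csf1r, by 1.18, while the pro-B marker Cd79a rose by 0.42 (adjusted p = 0.0414). Cd79b (0.23, adjusted p = 0.292) and Ptprc (0.09, adjusted p = 0.334) did not pass. Their part in the members' changes was not tested. In bulk RNA, fewer cells that express a gene and less of its RNA per cell cannot be told apart.

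**Figure D1:**
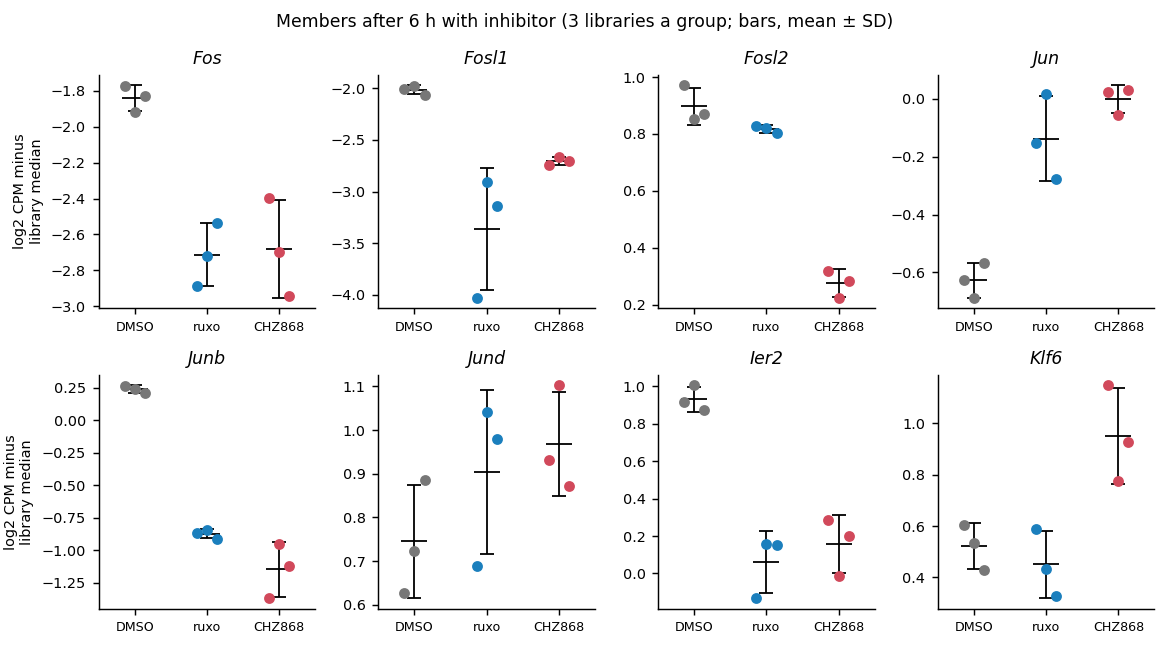
Each panel plots 1 member, with the log2 CPM minus the library's median over 11624 shared genes on the y axis and the DMSO-treated, ruxolitinib-treated and CHZ868-treated groups on the x axis; points are libraries and bars the mean ± SD (n = 3). Junb lies low with both inhibitors and Jun high, while Fosl2 and Klf6 lie farther from the DMSO-treated libraries with CHZ868 than with ruxolitinib.

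Ruxolitinib-treated libraries are in a table normalized apart from that of their DMSO controls, so values were centred on the median of each library across 11624 shared genes, and differences are described without a test. With ruxolitinib, Junb, Fosl1, Fos and Ier2 were lower and Jun was higher than in DMSO-treated cells, each with no overlap. Fosl2 also had no overlap but differed by only -0.08. Jund (0.16) and Klf6 (-0.07) overlapped. Non-overlap was seen for 6 of 8 members and for 44.6% of all shared genes. A difference of at least 1 log2 unit with no overlap was seen for 2 of 8, Junb and Fosl1, and for 3.12% of all shared genes. That count stayed at 2 without the ruxolitinib-treated library that stood apart. Of the marker genes, Cd79a (0.48), Cd79b (0.22) and Il3ra (0.25) were higher with ruxolitinib with no overlap, and Csf2rb (-0.16), Csf2rb2 (-0.12), Ptprc (-0.01) and Csf1r (-0.31) overlapped. Their part in the members' differences was not tested.

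Centred Junb was 0.27, 0.24 and 0.21 log2 units in the DMSO-treated libraries and -0.86, -0.85 and -0.91 in the ruxolitinib-treated ones. The replicates were nearly superimposed and the difference was -1.11 log2 units, 2.16-fold lower. Centred Fosl1 was -2.00, -1.98 and -2.06 with DMSO and -4.03, -2.91 and -3.14 with ruxolitinib, a difference of -1.35 that rests in part on the first library, which held 21 Fosl1 reads. Without it the difference was -1.01. Ccdc85b, on the other strand of Fosl1, had 86 to 105 reads with ruxolitinib against 186 to 233 with DMSO.

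Centred Fos went from -1.78, -1.92 and -1.83 with DMSO to -2.88, -2.72 and -2.54 with ruxolitinib, a difference of -0.87. Centred Ier2 went from 0.92, 1.00 and 0.87 to -0.13, 0.16 and 0.15, also a difference of -0.87. Both were 1.83-fold lower. Centred Jun was -0.63, -0.69 and -0.57 with DMSO and -0.15, 0.02 and -0.28 with ruxolitinib, 0.49 higher. The spread among the ruxolitinib-treated libraries was wider for Jun than with DMSO (SD 0.15 against 0.06), yet the groups stayed apart.

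The inhibitors were used at the same dose and time, and the CHZ868 and ruxolitinib comparisons share their DMSO libraries. On the centred scale the differences from DMSO with CHZ868 and with ruxolitinib were -1.38 and -1.11 for Junb, -0.84 and -0.87 for Fos, -0.77 and -0.87 for Ier2, and 0.63 and 0.49 for Jun. For Fosl1 they were -0.69 and -1.35, for Fosl2 -0.62 and -0.08, for Klf6 0.43 and -0.07, and for Jund 0.22 and 0.16. Set directly against each other, the inhibitor groups did not overlap for Fosl1, Fosl2, Junb and Klf6, 4 of 8, where 35.3% of all shared genes did not. The widest of these gaps relative to the spread was that of Fosl2, with centred levels of 0.83, 0.82 and 0.80 in ruxolitinib-treated and 0.32, 0.22 and 0.28 in CHZ868-treated cells. The inhibitor and the table cannot be told apart in these 4 differences, and no test was run.

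The ratio of Junb to Jun within 1 library does not depend on how libraries are scaled. It was looked at after the values were seen and is given as a description. In log2 units it was 0.90, 0.94 and 0.78 in the DMSO-treated libraries, -0.72, -0.87 and -0.64 in the ruxolitinib-treated ones and -1.41, -0.90 and -1.17 in the CHZ868-treated ones. Junb reads thus outnumbered Jun reads in every DMSO-treated library and in no library with inhibitor present. Per kilobase, Junb made up 35.1 ± 2.27% of the Jun family in DMSO-treated cells, 17.6 ± 1.64% in ruxolitinib-treated and 14.3 ± 1.43% in CHZ868-treated cells. The share of Jun was 10.9 ± 0.37%, 16.7 ± 1.66% and 18.1 ± 1.74%, and that of Jund 54.1 ± 2.49%, 65.7 ± 3.02% and 67.6 ± 1.61%. On this scale the order of Junb and Jun was mixed with ruxolitinib. Junb held 19.46%, 16.45% and 16.84% in replicates 1, 2 and 3, against 18.15%, 17.04% and 14.89% for Jun. In the Fos family, Fosl2 held 52.3 ± 0.55% with DMSO, 69.0 ± 5.02% with ruxolitinib and 54.9 ± 2.05% with CHZ868.

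**Figure D2:**
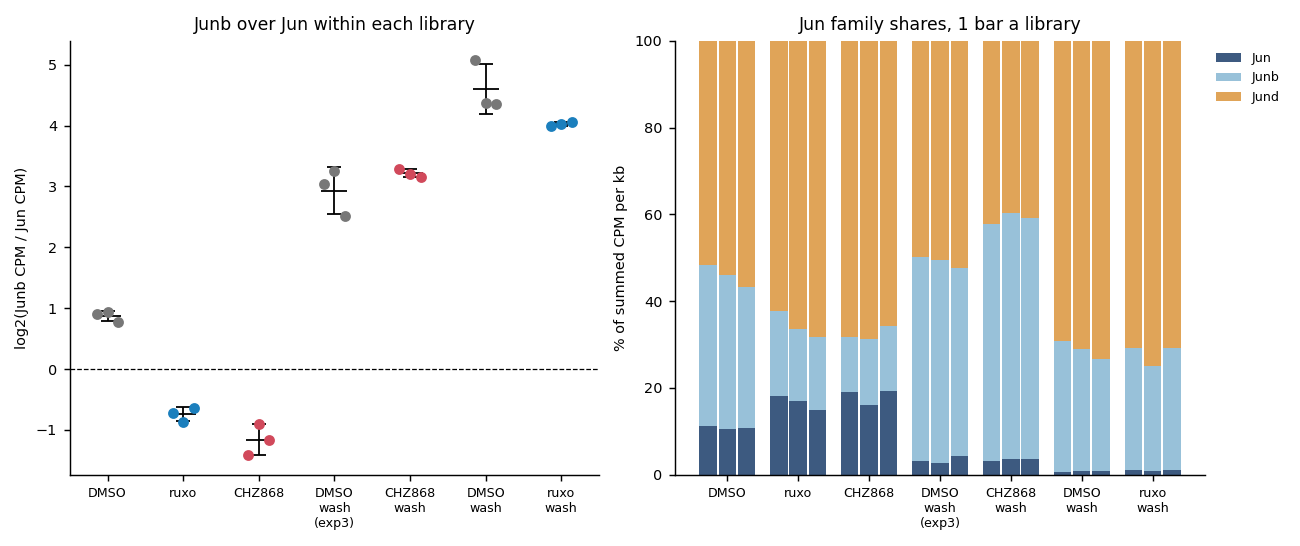
The left panel plots log2 of the Junb over the Jun CPM in each library (points; bars, mean ± SD, n = 3) for the 7 groups, and the right panel the percent of the summed CPM per kb of Jun, Junb and Jund, 1 bar a library. The ratio lies above 0 in all libraries but the 6 with inhibitor present for 6 h, and in the washout groups it lies between 2.51 and 5.07. The DMSO groups alone differ, with means of 0.87 (DMSO-treated), 2.93 (DMSO-wash, exp3) and 4.60 (DMSO-wash of the ruxolitinib experiment). The ratio therefore compares only within an experiment.

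Ruxo-wash cells, 6 h after removal of ruxolitinib, addressed whether gene expression differs at that time once the drug has left the kinase. These cells were harvested at this time alone, so an earlier, passing change was not measured. None of the 8 members listed in that table passed the test against DMSO-wash (limma-trend, Benjamini-Hochberg over 13085 genes), and none had an unadjusted p under 0.05, where 0.0229% of all genes passed the adjusted test. The number of members that passed was 0 under all alternative settings. Only Jun had no overlap between groups (12.9% of all genes had none), with 0.94, 1.53 and 1.42 log2 CPM in DMSO-wash and 1.89, 1.59 and 1.82 in ruxo-wash. The lowest ruxo-wash library was barely above the highest DMSO-wash one, and the difference was 0.47 (95% interval -0.18 to 1.11, adjusted p = 0.775).

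Junb, which fell with the inhibitor present, had 5.94, 5.86 and 5.73 log2 CPM in DMSO-wash and 5.85, 5.58 and 5.84 in ruxo-wash. The groups overlapped in part and the interval of the difference was -0.32 to 0.14. The most tightly measured members were Ier2, at 6.88, 6.89 and 6.86 against 6.89, 6.90 and 6.88, with an interval of -0.06 to 0.09, and Jund, with an interval of -0.10 to 0.08. Fosl2 differed by 0.00 (-0.26 to 0.26), Fosl1 by -0.20 (-0.79 to 0.39) and Klf6 by -0.24 (-0.68 to 0.20). Fos was too variable to bound closely: ruxo-wash replicate 1 had 2.63 log2 CPM and the others 1.67 and 1.36, against 1.70, 2.13 and 1.78 in DMSO-wash, and the interval ran from -0.87 to 0.90.

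CHZ868-wash cells were likewise harvested only 6 h after removal of the inhibitor. Jund was lower in them than in DMSO-wash cells of the same experiment. It alone among 9 members passed the test (4.02% of the 11355 genes of the table did). Its libraries had 6.44, 6.63 and 6.43 log2 CPM with DMSO-wash and 5.72, 5.79 and 5.88 with CHZ868-wash, that is 711 to 934 against 437 to 531 reads. No CHZ868-wash library came near a DMSO-wash one, and the log2 fold change was -0.70 ± 0.10 (limma-trend, adjusted p = 0.0179), 1.63-fold lower. The call was not robust. It was lost without CHZ868-wash replicate 1, 2 or 3 or DMSO-wash replicate 1 (adjusted p = 0.104, 0.163, 0.140 and 0.125). In these fits the log2 fold changes were -0.66, -0.70, -0.74 and -0.73, and at most 1 gene of the whole table passed. The call was also lost without the mean-variance trend (adjusted p = 0.0903). In a setting chosen after the data were seen, it was lost with the GC content trend removed (-0.39, adjusted p = 0.0658).

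The transcript of Jund has the highest GC content of the members, 67.1%, and across genes in this comparison the log2 fold change went down with GC content (Spearman's rho = -0.31, across 10881 genes, which are not independent replicates). Jund also shares 877 transcribed bases with Gm11175 on the other strand, which had 6.10, 6.24 and 6.07 log2 CPM with DMSO-wash and 5.45, 5.52 and 5.62 with CHZ868-wash, a log2 fold change of -0.60 (adjusted p = 0.0295). How much of the Jund difference is shared with GC content or with Gm11175 reads was not tested further.

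Fosl1, Jun and Ier2 had no overlap between CHZ868-wash and DMSO-wash either, but did not pass. With Jund that is 4 of 9 members, beside 31.0% of all genes. Fosl1 had 5.22, 4.96 and 5.89 log2 CPM in DMSO-wash and 4.70, 4.73 and 4.67 in CHZ868-wash, a difference of -0.66 ± 0.20 (adjusted p = 0.0803). The highest value is that of the DMSO-wash library that stood apart, and without it the difference was -0.39 (adjusted p = 0.0489). Without DMSO-wash replicate 2 it was -0.86 (adjusted p = 0.0135). Jun differed by -0.38 (interval -0.78 to 0.03, adjusted p = 0.237) and Ier2 by -0.30 (interval -0.52 to -0.08, adjusted p = 0.107).

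Junb had 6.47, 6.63 and 6.27 log2 CPM in DMSO-wash and 6.20, 6.42 and 6.45 in CHZ868-wash, with overlapping groups and an interval of -0.35 to 0.15. Fos (0.10), Fosl2 (0.17) and Klf6 (0.18) also overlapped. Fosb, the member with the fewest reads (21 to 37 per library in each group), had 1.88, 2.05 and 1.46 log2 CPM in DMSO-wash and 2.22, 1.32 and 1.73 in CHZ868-wash. Its interval of -0.72 to 0.64 is wide, and a change of that size was not detectable at this depth.

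**Figure D3:**
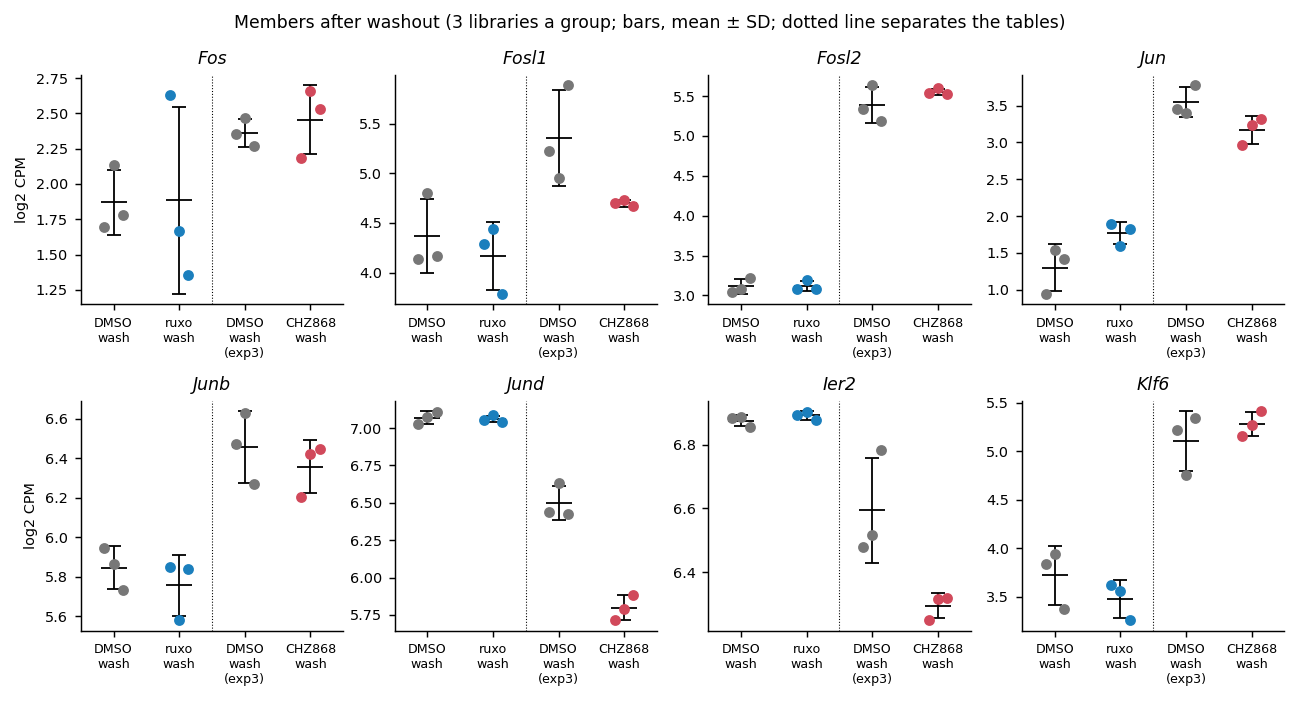
Each panel plots the log2 CPM of 1 member (y axis) in the DMSO-wash and ruxo-wash libraries of one table and, right of the dotted line, the DMSO-wash (exp3) and CHZ868-wash libraries of another; points are libraries and bars the mean ± SD (n = 3). The tables were normalized separately, so levels compare only on the same side of the line, where Jund with CHZ868-wash shows the clearest gap.

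The effects themselves were compared in joint fits. The ruxolitinib washout effect minus the CHZ868 washout effect passed for 1 of 8 members, Jund (0.69 ± 0.10, adjusted p = 0.0149), where 1.90% of 10078 genes passed. The Jund effects themselves were -0.01 with ruxo-wash and -0.70 with CHZ868-wash. Gm11175, on the other strand of Jund, was listed for the CHZ868 washout libraries but not for the ruxolitinib washout ones. Jund passed, but its call depended on the setting. It was lost with the GC content trend removed (0.33, adjusted p = 0.101). Jun had a difference of 0.84 (interval 0.19 to 1.49, adjusted p = 0.148) and Ier2 of 0.31 (adjusted p = 0.131), and for Junb the difference was 0.01 (interval -0.32 to 0.34). The inhibitor and the experiment cannot be told apart in these differences. Values gave whole reads in the CHZ868 washout libraries but not in the ruxolitinib washout libraries, so processing cannot be told apart either.

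The CHZ868 effect at 6 h minus its washout effect passed for 6 of 8 members, 4 lower and 2 higher, where 47.1% of 11175 genes passed, 23.8% lower and 23.2% higher. Junb differed most, by -1.31 ± 0.17 (limma-trend, adjusted p = 1.16e-05), then Fos by -0.96 (with quantile normalization -0.72, adjusted p = 0.0577), Fosl2 by -0.82 and Ier2 by -0.50, while Jun differed by 0.98 and Jund by 0.90. Jund passed with effects on either side of 0, of 0.20 at 6 h and -0.70 after washout. Fosl1, with effects of -0.72 and -0.66, had a difference of -0.06 (interval -0.61 to 0.50), and Klf6 of 0.22 (interval -0.19 to 0.63). Exposure schedule and experiment cannot be told apart here.

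**Figure D4:**
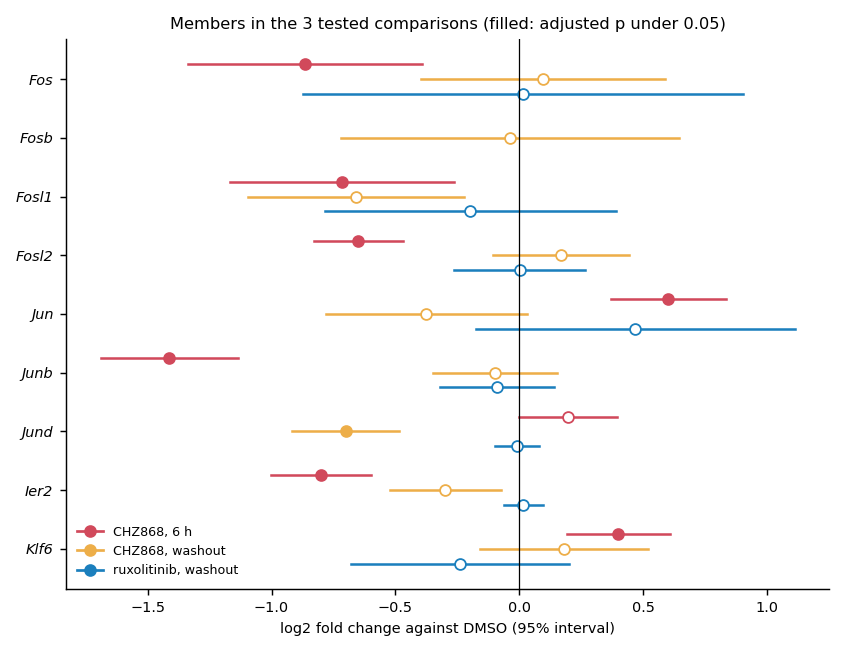
The log2 fold change against DMSO (x axis, points, with 95% intervals as lines) is plotted for each member (y axis) in CHZ868-treated, CHZ868-wash and ruxo-wash cells; filled points passed an adjusted p of 0.05. Intervals of the CHZ868-treated comparison leave 0 for 7 of 8 members, and all 8 intervals of the ruxo-wash comparison contain 0.

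Of 10 genes whose proteins pair with AP-1 proteins or bind related sites, 9 were measured, and with CHZ868 at 6 h 5 of them fell and 1 rose (median -0.42, all genes -0.01), beside 26.4% and 26.8% of all genes. Batf2, a partner of Jun proteins in leukocytes, fell by 1.57 ± 0.15 (adjusted p = 5.77e-07) and the small Maf genes Maff, Mafg and Mafk by 1.37, 1.06 and 0.42 on the log2 scale. Nfil3, a cytokine-induced repressor, fell from 241 to 279 reads per library to 87 to 94, and Atf2, a Jun partner at CRE sites, rose by 0.23. With ruxolitinib, Batf2 (-1.78), Maff (-1.33) and Nfil3 (-1.02) were at least 1 log2 unit lower with no overlap. Of all shared genes, 3.12% differed by as much, in either direction, with no overlap. None of the 9 passed in either washout comparison.

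Among 24 other immediate early genes, 17 were measured at 6 h with CHZ868. Of these 5 rose and 6 fell (median 0.06), beside 26.8% and 26.4% of all genes. The zinc finger factors Egr2 and Egr3 had few reads left: Egr2 had 4 to 5 reads with CHZ868 and 4 to 10 with ruxolitinib against 50 to 88 with DMSO, and Egr3 had 0 to 3 and 4 to 14 against 61 to 81. Csrnp1 fell by 1.47, Ier3 by 1.00, Ier5 by 0.98 and Gadd45b by 0.53 on the log2 scale. Those that rose were Zfp36l1 (0.85), which like Zfp36l2 (0.54) encodes an mRNA decay factor, the MAP kinase phosphatase Dusp1 (0.82), the nuclear receptor Nr4a2 (0.65) and Klf10 (0.46). In CHZ868-wash cells, where 17 of the 24 were measured, and in ruxo-wash cells, where 16 were, none passed.

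Of 18 upstream factors and kinases, all measured, 8 rose and 4 fell with CHZ868 at 6 h (median 0.15), beside 26.8% and 26.4% of all genes. Mapk3, which encodes ERK1, rose by 1.13 ± 0.08 (adjusted p = 2.27e-08), and was 1.01 log2 units higher with ruxolitinib. Mrtfa (0.74), a coactivator of serum response factor, Mapk8 (0.68), which encodes the c-Jun kinase JNK1, and Map2k4 (0.50), which activates it, rose as well, while Elk4 (-0.67) and Srf (-0.46), which bind serum response elements together, fell. Among the MAP kinase kinases Map2k7 (-0.28), which also activates JNK, and Map2k1 (-0.27), which activates ERK, fell. After washout 1 of the 18 passed with CHZ868, Map2k1 (0.37, adjusted p = 0.0452), beside 4.02% of all genes. None passed with ruxolitinib, beside 0.0229% of all genes. With CHZ868-wash the number of all genes that passed ranged from 0 to 1426 with 1 library left out.

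Of 8 textbook AP-1 targets only 3 were measured at 6 h. Cd44, an adhesion receptor, rose by 0.20, Vegfa, a vascular growth factor, fell by 0.68, and Plaur, the urokinase receptor, had a log2 fold change of -0.48 (adjusted p = 0.14). Heat shock genes, which respond to handling stress as some immediate early genes do, moved both ways with CHZ868: of 8 measured among 12, 3 rose and 4 fell (median -0.19), with Hsph1 the largest at -0.46, beside 53.2% of all genes that passed. In each washout comparison none of the 8 heat shock genes and none of the 6 measured AP-1 targets passed.

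Over the 21 libraries, each centred on the DMSO group of its own experiment, Junb varied most among the 8 members (SD 0.58 log2 units) and Fosl1 next (0.57). The genes whose pattern was most like that of Junb among 9973 were Gemin5 (Pearson's r = 0.98), Id1 (0.98), Man2a2 (0.98), 2410002F23Rik (0.98) and Rrp1b (0.98). Those most like Fosl1 were Ppan (0.92), Il18bp (0.92), Myc (0.90), Actb (0.88) and Treml2 (0.87). These values describe libraries that share groups, tables and controls.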

How the data were processed

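The authors had RNA from 21 libraries sequenced by BMK GmbH. Their methods name kallisto, GRCm38 transcripts, gene sums by biomaRt, a filter at low CPM and TMM normalization with edgeR, whereas the submitters' processing notes name STAR 2.7.3a, edgeR 4.0.16 and GRCm39, so aligner and build stay uncertain. The authors deposited log2 CPM, which here carry a small added constant, in 4 tables. Among low values, 100% were whole reads in 3 tables (tolerance 0.1 read), and reads were recovered there. In the ruxolitinib washout libraries only 20.3% to 22.4% of low values lay within that tolerance, and no reads were recovered. For this reason no count test was run. Library kits mark strand, but counting is not stated to use it.

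Values were fitted by limma-trend (limma 3.58.1, R 4.3.3), two-sided, adjusted over all genes of a table, on the groups compared. The washout effects were compared over 10078 shared genes and the CHZ868 effects over 11175. Ruxolitinib-treated libraries were centred on the median. The fits were tested on simulated data. Positions, overlaps and GC content came from the GENCODE annotation of GRCm38, with transcript copies from blastn 2.17.0, and promoters from RefSeq. Members and lists were chosen with earlier results of these data known. Named are all members, list genes past the test (at most 6 per direction), and the 5 genes most correlated with the 2 most variable members. Same-numbered replicates did not deviate together (correlations -0.07 to 0.09). Alternatives were no trend, robust fits, median centring, quantile normalization, log2(CPM + 1), a mean log2 CPM of 1, a replicate block, leaving out each library, a log2 fold change of 0.58, and removal of a GC trend, which was added after the data were seen. All columns were mapped to a group.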

Additional observations from a re-analysis of the deposited data

Results flagged for a closer look

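The difference between the effects of CHZ868 at 6 h and after washout passed an adjusted p of 0.05 for 6 members in the joint limma-trend fit: Junb (-1.31), Fos (-0.96, though -0.72 with an adjusted p of 0.0577 under quantile normalization), Fosl2 (-0.82), Jun (0.98), Jund (0.90) and Ier2 (-0.50 log2 units). Exposure schedule and experiment cannot be told apart in these values. The difference between the ruxolitinib and CHZ868 washout effects passed for Jund alone (0.69 log2 units), and inhibitor, experiment and processing cannot be told apart there. The Jund difference was 0.33 once the GC content trend was removed.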

How the results depend on the processing

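The number of members that passed, 7 with CHZ868 at 6 h, 0 with ruxo-wash and 2 past 1 log2 unit with ruxolitinib, stayed within 6 to 8, at 0 and at 2 in all settings, left-out libraries included. With quantile normalization the CHZ868 difference of Fosl1 at 6 h had an adjusted p of 0.0532, and that of Fos between 6 h and washout 0.0577. With CHZ868-wash 1 member passed, but 0 without the mean-variance trend, 2 with the replicate block (Jund and Fosl1, adjusted p = 0.0482), 0 with the GC trend removed, and 0 to 2 when 1 library was left out. Over all genes in that comparison 457 passed, against 0 without the trend, 26 with the GC trend removed, 174 with a log2 fold change of 0.58, and 0 to 1426 with 1 library left out, the highest without DMSO-wash replicate 3 of that experiment, 1298 without replicate 2 and at most 1 without any other. For the difference between washout effects 1 member passed, against 0 with the replicate block (Jund, adjusted p = 0.0716) and 0 with the GC trend removed. Over all genes there, 191 passed, against 14 without the trend, 6 with the block, 94 with the stricter rule, 24 with the GC trend removed, and 5 to 628 with 1 library left out. In the ruxo-wash comparison 3 genes passed, against 9 without the trend, 5 with robust fits, 0 with the block, 0 with the stricter rule, and 0 to 1 with 1 library left out. With CHZ868 at 6 h, 6213 genes passed and 2941 with the stricter rule. Same-numbered samples share only a number, and the block changed no other call of a member.

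Only members that had not passed changed sign. With ruxo-wash, Ier2 was -0.0080 with the GC trend removed, and with 1 library left out Fos ranged from -0.36 to 0.28, Fosl1 from -0.33 to 0.018, Fosl2 from -0.036 to 0.055 and Jund from -0.032 to 0.0097. With CHZ868-wash, Fosb was 0.050 and Junb 0.11 with the GC trend removed, and with 1 library left out Fos ranged from -0.0047 to 0.23 and Fosb from -0.27 to 0.18. For the difference between washout effects, Fos was 0.0085 and Junb -0.013 with quantile normalization, Junb was -0.24 with the GC trend removed, and with 1 library left out Fos ranged from -0.45 to 0.18 and Junb from -0.079 to 0.10. For the CHZ868 difference between 6 h and washout, Fosl1 was 0.16 with quantile normalization and ranged from -0.32 to 0.14 with 1 library left out, and Klf6 passed without DMSO-wash replicate 2 (0.39, adjusted p = 0.0478). With ruxolitinib at 6 h, Junb was -1.17 with the GC trend removed. Fosb (21 to 37 reads), Fosl1 with ruxolitinib (21 to 48) and Fos with CHZ868 (37 to 69) rest on few reads, and the depth of the ruxo-wash table is unknown.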
